A study of Mus musculus with 18 samples.

Results

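The genes described here are 10 enzymes of glycolysis and lactate formation, Hk1, Hk2, Pfkl, Pfkp, Pfkfb3, Aldoa, Gapdh, Pgk1, Pkm and Ldha, taken by symbol from a table of 21638 genes. Each symbol matched 1 row. Their RNA was measured in 18 libraries of endothelial cells from the cortex of adult mice, sorted for CD31 and against CD41 and CD45. Of the 6 groups of 3 libraries, those from wild-type mice were sham ipsilateral, sham contralateral, MCAO ipsilateral and MCAO contralateral, where MCAO stands for occlusion of the middle cerebral artery, which models ischaemic stroke by surgery. The others were ipsilateral cells after MCAO from mice labelled Hdac2 ECKO (Hdac2lox/lox:Cdh5CreERT2) or Ezh2 ECKO (Ezh2lox/lox:Cdh5CreERT2), in which a tamoxifen-dependent Cre recombinase driven by the endothelial Cdh5 promoter is meant to delete a histone deacetylase or the methyltransferase of Polycomb repressive complex 2. The labels of all 18 libraries, wild-type ones included, give tamoxifen at 75 mg/kg. The floxed mice had 5 doses of it from day 0 to day 4, per the series' design text, which gives no schedule for the wild-type mice. Cells were taken on day 7 after stroke induction. No wild-type group was labelled as carrying the Cre transgene or floxed alleles, so deletion, transgene and litter cannot be told apart.

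Glycolysis breaks glucose down to pyruvate in the cytosol. Hexokinases trap glucose as its phosphate, phosphofructokinases commit it to the pathway, and aldolase splits the product. The enzymes from Gapdh to pyruvate kinase form the phase that yields ATP, after which lactate dehydrogenase turns pyruvate into lactate and restores NAD+. For short, Aldoa, Gapdh, Pgk1, Pkm and Ldha are together called lower-phase enzymes here, and the other members upper-phase genes. Endothelial cells are known to draw most of their ATP from glycolysis even when oxygen is plentiful, PFKFB3 is known to drive it during vessel sprouting, and many of these genes are known targets of the hypoxia-inducible factors.

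Promoter sequences are shown for Ldha, Aldoa, Gapdh and Pgk1, which were among the most abundant of these transcripts. Each is the stretch of 250 bases before a RefSeq transcription start on GRCm38.p6, in the direction of the gene and free of annotated exons. Capitals mark the core of the hypoxia response element, searched as ACGTG or GCGTG on both strands, so that a CACGTG palindrome counts as 2 overlapping matches.
Ldha, chr7:46845554-46845803, plus strand: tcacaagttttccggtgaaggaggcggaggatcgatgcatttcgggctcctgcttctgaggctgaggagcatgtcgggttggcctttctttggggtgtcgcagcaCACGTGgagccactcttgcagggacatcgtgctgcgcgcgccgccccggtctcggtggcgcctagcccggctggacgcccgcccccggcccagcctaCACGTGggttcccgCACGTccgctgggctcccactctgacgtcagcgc
Aldoa, chr7:126799255-126799504, minus strand: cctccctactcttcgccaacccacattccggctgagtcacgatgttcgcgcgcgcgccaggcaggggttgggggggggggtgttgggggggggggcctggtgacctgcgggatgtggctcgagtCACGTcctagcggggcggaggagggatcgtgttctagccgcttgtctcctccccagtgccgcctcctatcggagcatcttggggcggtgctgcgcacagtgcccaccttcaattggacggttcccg
Gapdh, chr6:125165774-125166023, minus strand: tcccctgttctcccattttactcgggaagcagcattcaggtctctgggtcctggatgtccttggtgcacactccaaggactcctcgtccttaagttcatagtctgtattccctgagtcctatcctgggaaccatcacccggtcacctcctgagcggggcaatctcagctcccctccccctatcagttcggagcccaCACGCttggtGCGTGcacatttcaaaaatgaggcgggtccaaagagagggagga
Pgk1, chrX:106186850-106187099, plus strand: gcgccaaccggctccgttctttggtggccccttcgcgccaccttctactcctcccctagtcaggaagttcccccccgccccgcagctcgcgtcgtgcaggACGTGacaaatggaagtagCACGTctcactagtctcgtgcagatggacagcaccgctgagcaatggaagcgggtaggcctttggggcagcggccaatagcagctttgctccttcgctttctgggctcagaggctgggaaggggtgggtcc
The Ldha window held 5 matches, those of Gapdh and Pgk1 held 2 each, and that of Aldoa held 1. Among 32851 promoter windows of the same length, 38.6% held at least 1 match, 16.7% at least 2 and 1.01% at least 5. RefSeq gives Ldha a further start, whose window held 1 match, and the start used for the Ldha window above was not the start of a GENCODE M21 transcript. Aldoa has further RefSeq starts at 126799178 and 126800447, whose windows held 1 and 0 matches and overlap annotated exons. A match of letters is a description, and binding was not measured. On GRCm38, Ldha spans chr7:46841475-46855627 on the plus strand, Aldoa chr7:126795234-126809108 on the minus strand, Gapdh chr6:125161715-125166467 on the minus strand and Pgk1 chrX:106187100-106203699 on the plus strand.

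Total counts ran from 25791401 to 57576255 per library, and a level is given as CPM, the count relative to the library total after TMM scaling, times 1000000. All 10 endothelial markers were found in every group, with summed levels of 12650 to 27260 CPM. Reads on 1466 olfactory and vomeronasal receptor genes are given throughout as CPM of the library total without TMM scaling. By this measure the libraries of MCAO contralateral replicate 1 and Ezh2 ECKO replicate 2 stood apart, with 1889 and 2083 CPM. The other 16 had 151.8 to 716 CPM. As a check of the labels, the libraries labelled Hdac2 ECKO had 57.6, 85.0 and 87.9 CPM of Hdac2, against 84.4, 68.2 and 96.1 CPM in MCAO ipsilateral, and those labelled Ezh2 ECKO had 12.0, 19.7 and 8.41 CPM of Ezh2, against 4.45, 7.02 and 7.85 CPM. Hdac2 thus overlapped its MCAO ipsilateral range, and Ezh2 lay above its range in all 3 libraries labelled Ezh2 ECKO, opposite to a loss. Neither gene total showed the labelled deletion, although it cannot separate exons inside and outside the floxed stretch. The labels do not say whether libraries are separate mice or whether same-numbered sides share one, so p-values measure the spread between these libraries, which may be technical. In sorted pools, fewer cells of a type and less RNA per cell cannot be told apart.

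Levels per kb use the deposited length of a gene. For Pfkp (13401 bases) and Gapdh (4133 bases) it equals all annotated exon bases merged, which is not the length of 1 transcript. Per kb of this length, Ldha was the most abundant of the 10 transcripts, at 64.1 ± 39.8 CPM per kb (SD, n = 18 libraries). Aldoa, which splits fructose bisphosphate, followed at 41.4 ± 30.7, Pgk1, the first ATP-yielding kinase of the pathway, at 35.9 ± 10.3, Gapdh, which oxidises glyceraldehyde phosphate, at 32.2 ± 20.2, and Pkm, pyruvate kinase, at 18.8 ± 9.65 CPM per kb. Ldha exceeded Aldoa in 16 of 18 libraries, whereas Aldoa against Pgk1 and Pgk1 against Gapdh were each higher in only 9 of 18, so these neighbours did not differ beyond their spread. The order also depends on the length used. In CPM not divided by length, the median was 124.4 for Gapdh and 79.2 for Pgk1. The enzymes of the upper phase were far lower. Pfkl and Pfkp, the liver and platelet forms of phosphofructokinase, had 2.71 ± 1.74 and 1.85 ± 0.95 CPM per kb, Hk1 had 1.72 ± 0.685, and Pfkfb3, which makes the activator of phosphofructokinase, had 1.20 ± 0.708 CPM per kb. Pkm exceeded Pfkl in 18 of 18 libraries, Pfkl exceeded Pfkp in 13, and Pfkp exceeded Hk1 in 10. Hk2, the inducible hexokinase, had 0 to 48 counts per library. Its 0 counts in MCAO contralateral replicate 3 allow up to 0.0593 CPM without TMM scaling, the equivalent of 3 counts, for counting error only. This bound treats each count as independent. In that library 84.6% of values from 1 to 20 were even, so the bound may be too low.

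**Figure D1:**
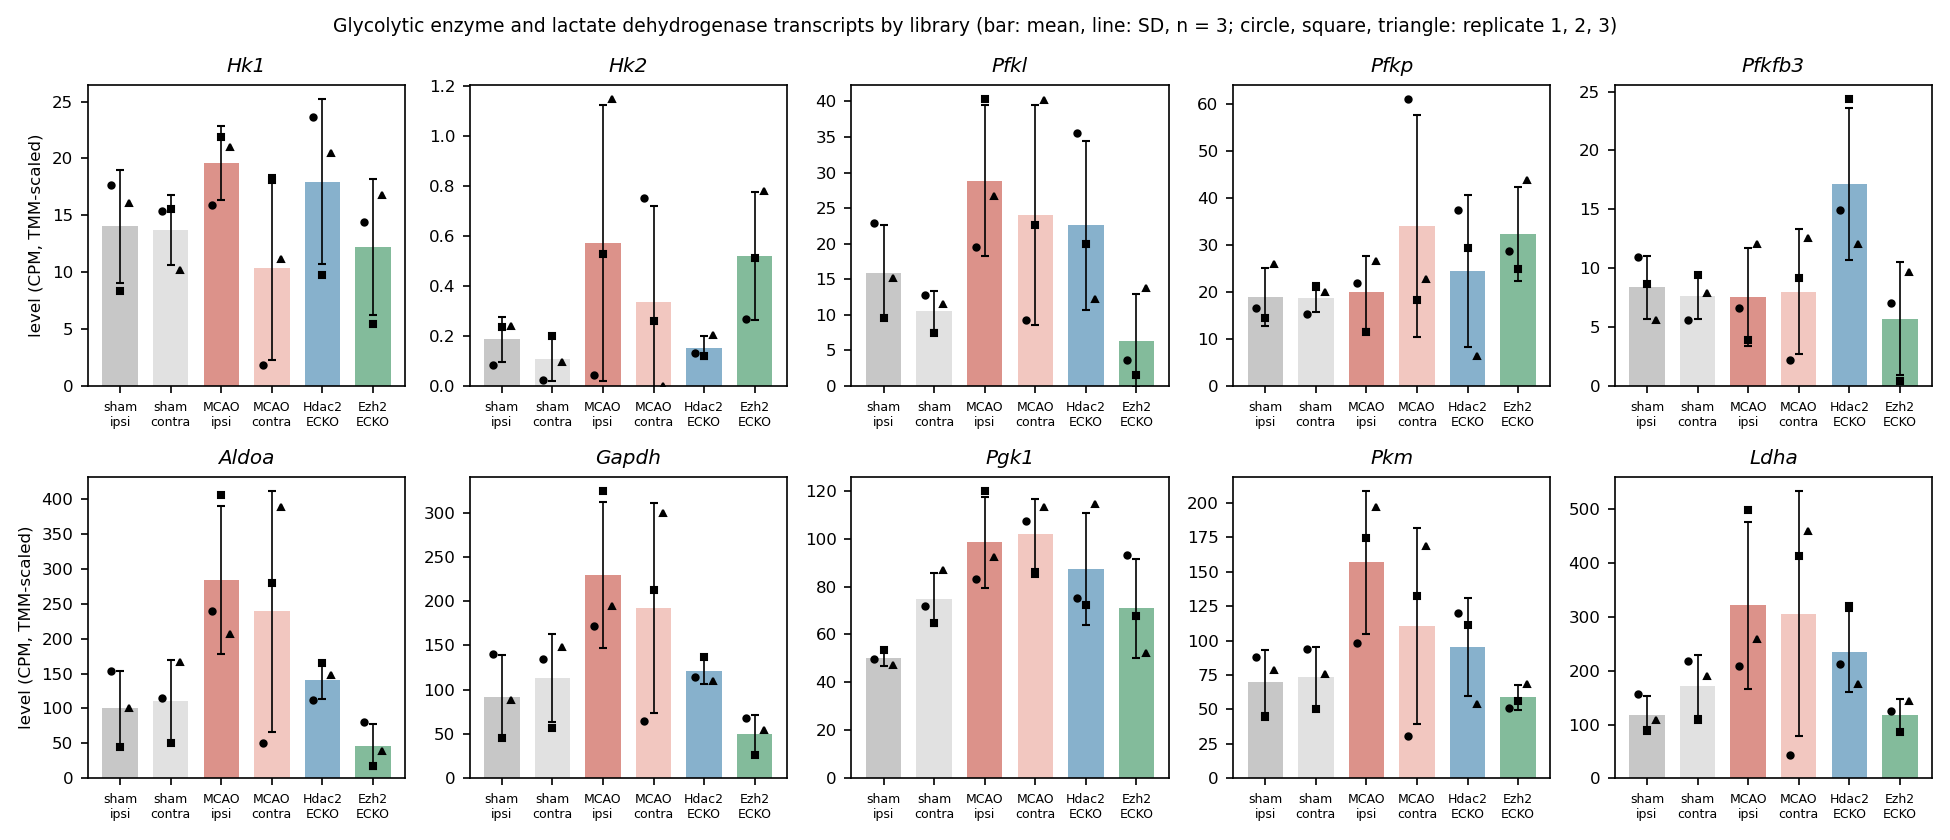
Level of each of the 10 transcripts in CPM (y axis, from 0) in the 6 groups (x axis). Bars are means of 3 libraries, lines are SD, and circles, squares and triangles are replicates 1, 2 and 3. Aldoa had its 3 highest group means in MCAO ipsilateral, MCAO contralateral and Hdac2 ECKO, and MCAO contralateral replicate 1 (circle) lies low for Aldoa, Gapdh, Pkm and Ldha but not for Pgk1.

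The comparison of MCAO ipsilateral with sham ipsilateral asks what occlusion did on the injured side. Aldoa, Gapdh, Pgk1, Pkm and Ldha were higher in every MCAO ipsilateral library than in every sham ipsilateral library, by 1.97-fold for Pgk1 to 2.84-fold for Aldoa. By edgeR's quasi-likelihood test no tested gene of any kind passed the adjusted threshold in this comparison. Ldha had 157, 89.4 and 108.1 CPM in sham ipsilateral and 208, 498 and 259 CPM in MCAO ipsilateral, which is 1.44 ± 0.55 as a log2 fold change with its SE (adjusted p = 0.63). Aldoa had 153, 45.5 and 101.2 CPM against 239, 405 and 207 CPM, with a log2 fold change of 1.504 ± 0.61 (adjusted p = 0.645). The lowest MCAO library for Aldoa thus lay above the highest sham library. Gapdh had 140.2, 45.3 and 88.7 CPM against 171.5, 324 and 194 CPM (log2 fold change 1.33 ± 0.51, adjusted p = 0.63). Pkm had 88.0, 44.6 and 78.3 CPM against 98.4, 174.9 and 197 CPM (1.16 ± 0.48, adjusted p = 0.645). Pkm came closest to an overlap of these 5, its lowest MCAO value lying just above its highest sham value. Pgk1 had the tightest libraries, with 49.8, 53.4 and 47.2 CPM in sham and 83.2, 119.8 and 92.5 CPM in MCAO (0.97 ± 0.31, adjusted p = 0.542).

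Of the 10 genes, 9 had a positive fold change, as did 45.9% of all genes, with a median log2 fold change of 1.07 against -0.09 over all 17094 genes tested. By edgeR's quasi-likelihood F-test, 0 of 10 were called at an adjusted p under 0.05, where the share over all genes was 0%. At an unadjusted p under 0.05 there were 5 of 10, against 7.08% of all genes, and 5 of 10 had groups that did not overlap, all higher, against 27.7% of all genes in either direction and 13.3% higher. DESeq2 called 0 of the 10, and limma voom with sample weights called 4, namely Pgk1, Ldha, Aldoa and Gapdh, with adjusted p from 0.0148 to 0.0276. The share of all genes called by these tools was not computed. The upper-phase genes had log2 fold changes of 1.60 ± 1.46 for Hk2, 0.86 ± 0.66 for Pfkl, 0.48 ± 0.63 for Hk1, 0.07 ± 0.56 for Pfkp and -0.16 ± 0.79 for Pfkfb3. The sign for Pfkp and Pfkfb3 turned when single libraries were left out. Hk2 had 0.0456, 0.53 and 1.15 CPM in MCAO ipsilateral and 0.0825 to 0.241 CPM in sham ipsilateral, which overlapped. Other values moved along with these genes. Summed endothelial markers were 19670 to 27260 CPM in MCAO ipsilateral and 15680 to 16560 CPM in sham ipsilateral, and 8 of 8 microglial and macrophage markers, all found, summed to 77.2 to 85.8 against 36.9 to 44.2 CPM. Platelet markers (4) were also higher without overlap, at 34.6 to 38.2 against 17.2 to 22.8 CPM, as were markers of oligodendrocyte precursors (3), at 9.14 to 36.9 against 3.38 to 8.06 CPM, and pericyte markers (5) were lower, at 17.9 to 60.0 against 75.1 to 90.5 CPM. The part of these markers in the result was not tested. Receptor-gene reads were 153.9 to 296.5 against 285 to 716 CPM, and with them as a covariate the log2 fold changes were 0.82 for Aldoa, 0.82 for Gapdh, 0.97 for Pgk1, 0.76 for Pkm and 0.75 for Ldha, with 0 called.

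On the contralateral side the order of the groups was similar and the spread wider. Ldha had 218, 108.3 and 190.6 CPM in sham contralateral and 44.1, 413 and 460.1 CPM in MCAO contralateral (log2 fold change 0.83 ± 0.55), and Aldoa had 114.6, 49.9 and 166 CPM against 50.5, 279 and 388 CPM (1.12 ± 0.61). In both genes MCAO replicates 2 and 3 lay above all sham libraries and replicate 1, the library rich in receptor-gene reads, lay at or near the bottom. Pgk1 departed from this, with 107.2 CPM in that same library, between 85.3 and 113.2 CPM in the other MCAO libraries and above the sham range of 64.9 to 86.9 CPM. Of the 10 genes, 9 had a positive fold change, as did 59.3% of all genes (median 0.79, against 0.17 over all genes). Groups without overlap numbered 0, against 9.65%. EdgeR's quasi-likelihood test called 0 against 0% of all genes, and 0 passed an unadjusted p under 0.05 against 4.41%. DESeq2 and voom with sample weights also called 0. Markers of pericytes (8.73 to 23.8 against 52.7 to 119.9 CPM) and astrocytes (32.8 to 54.2 against 57.8 to 91.2 CPM) were lower without overlap in MCAO contralateral. Those of oligodendrocyte precursors (11.7 to 16.0 against 2.62 to 8.36 CPM) and neurons (2.61 to 6.19 against 0.624 to 1.38 CPM) were higher. The part of these markers was not tested.

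The sides were compared within each condition. MCAO ipsilateral against MCAO contralateral gave a median log2 fold change of 0.25 over the 10 genes against -0.05 over all genes. Sham ipsilateral against sham contralateral gave -0.02 against 0.07, and Pgk1 alone did not overlap, at 47.2 to 53.4 CPM ipsilaterally and 64.9 to 86.9 CPM contralaterally, where 15.4% of all genes did not overlap. In the test of whether the side difference itself differed between MCAO and sham, the median was 0.46 against -0.08. In each of these 3 comparisons 0 of 10 genes were called by edgeR, against 0% of all genes, and 0 passed an unadjusted p under 0.05, against 3.08%, 1.85% and 3.38% of all genes. DESeq2 and voom with sample weights called 0 in the comparisons of sides within MCAO and within sham. After MCAO, ipsilateral astrocyte markers were higher without overlap (54.5 to 64.6 against 32.8 to 54.2 CPM). Oligodendrocyte markers were lower without overlap (25.6 to 29.3 against 42.55 to 190.5 CPM). In sham, ipsilateral red cell markers (19220 to 59010 against 72030 to 129600 CPM), microglial and macrophage markers (36.9 to 44.2 against 47.6 to 65.1 CPM) and platelet markers (17.2 to 22.8 against 24.8 to 36.9 CPM) were lower without overlap. Immediate early genes were higher in sham ipsilateral (2899 to 3348 against 1997 to 2627 CPM). The part of these markers was not tested.

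Over both sides, MCAO against sham again gave 9 of 10 positive fold changes, where 54.2% of all genes had one, with a median of 0.95 against 0.06 over all genes. None of the 10 was called by edgeR's quasi-likelihood test, where 0.152% of all genes were, while 6 passed an unadjusted p under 0.05, against 9.09% of all genes. The 6 were Pgk1 (log2 fold change 0.71 ± 0.22, adjusted p = 0.223), Aldoa (1.31 ± 0.43, 0.256), Gapdh (1.05 ± 0.36, 0.284), Ldha (1.14 ± 0.39, 0.287), Pkm (0.87 ± 0.33, 0.382) and Pfkl (1.02 ± 0.47, 0.521), each with an adjusted p as the last value. Of the 6 MCAO libraries, 5 lay above all 6 sham libraries for Aldoa, Gapdh and Pkm, and 4 did for Ldha and Pgk1. MCAO contralateral replicate 1 lay below all sham libraries for Pkm (30.9 against at least 44.6 CPM) and Ldha (44.1 against at least 89.4 CPM). Thus 0 of the 10 genes had conditions without overlap, against 1.42% of all genes. A share of all genes was not computed for the counts of libraries. Pgk1 had no MCAO library below 83.2 CPM and no sham library above 86.9 CPM. Without MCAO contralateral replicate 1, the test called 4 of the 10, all higher: Ldha (1.41, adjusted p = 0.0125), Aldoa (1.57, 0.0346), Pkm (1.11, 0.0351) and Gapdh (1.27, 0.042). Voom with sample weights, which gives libraries of larger scatter less weight, called the 6 genes named above with all libraries kept, and DESeq2 called 0. The main fit counts each side as a library of its own. With both sides of a condition summed by replicate number, edgeR called 0. For these alternative fits the share of all genes called was not computed. With the receptor-gene reads as a covariate 0 were called, and the log2 fold changes were 0.96 for Aldoa, 0.82 for Gapdh, 0.71 for Pgk1, 0.70 for Ldha and 0.64 for Pkm. Markers of oligodendrocyte precursors did not overlap between the conditions, at 2.62 to 8.36 CPM in the sham and 9.14 to 36.9 CPM in the MCAO libraries, while pericyte markers were 52.7 to 119.9 and 8.73 to 60.0 CPM. The part of these markers was not tested.

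The libraries labelled Ezh2 ECKO had the lowest group means of Aldoa, Gapdh and Pkm. Aldoa and Gapdh were lower than in MCAO ipsilateral by 6.15-fold and 4.61-fold and were the 2 of 10 genes called by edgeR's quasi-likelihood test. Over all genes 1.46% were called and 1.23% were called lower. Aldoa had 81.2, 18.2 and 39.0 CPM against 239, 405 and 207 CPM in MCAO ipsilateral, a log2 fold change of -2.62 ± 0.64 (adjusted p = 0.0434). Gapdh had 68.2, 26.6 and 54.7 CPM against 171.5, 324 and 194 CPM, a log2 fold change of -2.21 ± 0.52 (adjusted p = 0.0405). All 3 libraries labelled Ezh2 ECKO lay below the lowest MCAO ipsilateral library for both genes, and within or below the sham ipsilateral range.

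A further 3 genes had groups that did not overlap without passing the adjusted threshold. Pfkl had 3.67, 1.59 and 13.8 CPM against 19.6, 40.3 and 26.7 CPM (log2 fold change -2.18 ± 0.69, adjusted p = 0.0971), and was called by DESeq2 (adjusted p = 0.024), which called Aldoa and Gapdh as well. Pkm had 51.3, 56.5 and 68.6 CPM against 98.4, 174.9 and 197 CPM (-1.42 ± 0.48, adjusted p = 0.119). Ldha had 125.9, 85.9 and 143 CPM against 208, 498 and 259 CPM (-1.44 ± 0.55, adjusted p = 0.162). Groups without overlap thus numbered 5 of 10 here, against 29% of all genes, and 5 of 10 passed an unadjusted p under 0.05, against 19.2%. Pgk1 stayed apart from this pattern, at 93.0, 67.9 and 52.1 CPM, overlapping the MCAO range of 83.2 to 119.8 CPM (-0.47 ± 0.31, adjusted p = 0.391). Pfkp was the single gene with a positive value, 28.7, 24.8 and 43.8 CPM against 21.8, 11.5 and 26.6 CPM (0.70 ± 0.56, adjusted p = 0.477). A positive value occurred for 55.4% of all genes. The median over the 10 genes was -1.05, against 0.17 over all genes.

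The calls for Aldoa and Gapdh rested on few libraries. The count fell from 2 to 0 without MCAO ipsilateral replicate 1 or replicate 2, or without Ezh2 ECKO replicate 2 or replicate 3, and to 1, Aldoa, without Ezh2 ECKO replicate 1, while the fold changes stayed between -3.31 and -2.27 for Aldoa and between -2.50 and -1.88 for Gapdh. Without both libraries rich in receptor-gene reads, 2 were called (adjusted p = 0.0247 for Aldoa and 0.0261 for Gapdh). With the receptor-gene reads as a covariate, 0 were called, at -1.62 for Aldoa (adjusted p = 0.112) and -1.35 for Gapdh (adjusted p = 0.117). Those reads amounted to 267.8, 2083 and 600.1 CPM in Ezh2 ECKO replicates 1, 2 and 3 and to 241.6, 153.9 and 296.5 CPM in MCAO ipsilateral. Ezh2 ECKO replicate 1, whose reads lie within the MCAO ipsilateral range, had 81.2 CPM of Aldoa and 68.2 CPM of Gapdh, below the lowest MCAO values of 207 and 171.5 CPM. That is 1 library, and beyond the covariate fit the part of the receptor-gene reads in the result was not tested. Summed endothelial markers were 12650 to 15370 CPM against 19670 to 27260 CPM, and the 7 red cell markers summed to 71.0 to 671 CPM against 38270 to 65450 CPM. Markers of microglia and macrophages, at 55.1 to 61.1 against 77.2 to 85.8 CPM, of neutrophils (5), at 2.85 to 3.75 against 8.30 to 12.5 CPM with Camp at 0 in MCAO ipsilateral, and of platelets, at 17.2 to 29.6 against 34.6 to 38.2 CPM, did not overlap either. The part of these marker differences in the result was not tested.

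**Figure D2:**
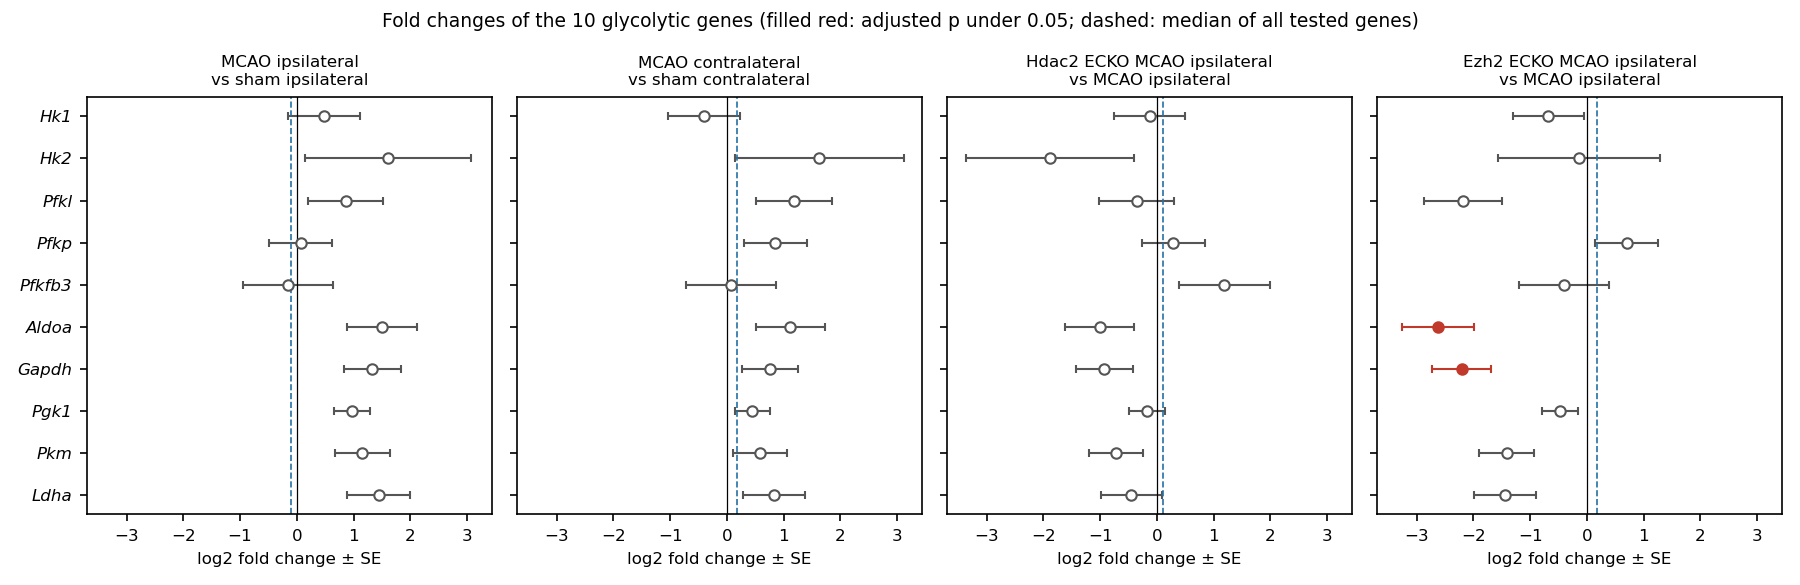
Log2 fold change (x axis) with its SE for each of the 10 genes (y axis) in 4 comparisons. Filled red points passed an adjusted p under 0.05 and the dashed line is the median of all tested genes. Red points occur for Aldoa at -2.62 and Gapdh at -2.21, in the comparison of libraries labelled Ezh2 ECKO with MCAO ipsilateral.

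The libraries labelled Hdac2 ECKO lay, by group mean, between the MCAO ipsilateral libraries and those labelled Ezh2 ECKO for all 5 lower-phase enzymes. Aldoa had 111.5, 165 and 148 CPM and Gapdh had 114.2, 137 and 110.4 CPM, both without overlap with MCAO ipsilateral (log2 fold changes -1.01 ± 0.61 and -0.93 ± 0.50, adjusted p = 0.611 and 0.557), where 19.9% of all genes did not overlap. Pkm had 119.9, 111.3 and 54.3 CPM and Ldha had 212, 320.2 and 175 CPM, which overlapped the MCAO values (-0.72 ± 0.47 and -0.45 ± 0.54). Pfkfb3 went the other way, at 14.9, 24.4 and 12.05 CPM against 6.66, 3.88 and 12.06 CPM in MCAO ipsilateral, which overlapped by the last value of each (1.19 ± 0.80, adjusted p = 0.654). These were the highest Pfkfb3 levels of any group by mean, 17.1 ± 6.45 CPM (SD, n = 3). The test called 0 of 10 genes, where 0.0117% of all genes were called, and 0 of 10 passed an unadjusted p under 0.05, against 9.85% of all genes. DESeq2 and voom with sample weights called 0. A positive fold change was found for 2 of 10 genes and 54.8% of all genes, and the median was -0.40 over the 10 genes and 0.11 over all genes. Summed endothelial markers were lower without overlap, at 15930 to 18870 against 19670 to 27260 CPM in MCAO ipsilateral, and 17 immediate early genes were higher without overlap, at 4147 to 5790 against 2136 to 3236 CPM. Red cell markers overlapped, at 49330 to 297900 against 38270 to 65450 CPM. The part of these markers in the values was not tested.

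Compared with each other, the libraries labelled Hdac2 ECKO had higher levels than those labelled Ezh2 ECKO for 8 of 10 genes, as for 44.4% of all genes, with a median log2 difference of 0.85 against -0.15 over all genes. None of the 10 was called by edgeR, where 0.123% of all genes were, and DESeq2 and voom with sample weights also called 0. The 3 with an unadjusted p under 0.05, against 11.2% of all genes, were Pfkl (1.83 ± 0.68, adjusted p = 0.308), Aldoa (1.62 ± 0.61, 0.315) and Gapdh (1.28 ± 0.51, 0.336), each with an adjusted p as the last value. Groups did not overlap for 5 of 10, against 12.1% of all genes: Aldoa, Gapdh, Ldha and Pfkfb3 were higher and Hk2 was lower. Both comparisons with MCAO ipsilateral share the same 3 control libraries. Between Hdac2 ECKO and Ezh2 ECKO, 4 marker lists were higher without overlap in Hdac2 ECKO. Red cell markers were 49330 to 297900 against 71.0 to 671 CPM and endothelial markers 15930 to 18870 against 12650 to 15370 CPM. Neutrophil markers were 5.29 to 11.2 against 2.85 to 3.75 CPM, with Ngp at 0 in Hdac2 ECKO. Immediate early genes were 4147 to 5790 against 2454 to 3729 CPM. The part of these markers was not tested.

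Across the 18 libraries, the lower-phase enzymes moved against the receptor-gene reads, which come from genes that brain endothelium is not known to use. The sum of Aldoa, Gapdh, Pgk1, Pkm and Ldha ranged from 255 CPM in Ezh2 ECKO replicate 2 to 1522 CPM in MCAO ipsilateral replicate 2. On log scales its Pearson r with the receptor-gene reads was -0.798 and its Spearman rho -0.814 (permutation p = 3e-05 and 0.00014, two-sided, adjusted 0.00011 and 0.000513 over 11 relations). It was -0.766 once the 2 libraries with the most extreme receptor reads, relative to the median, were left out, and -0.849 after each group's mean was removed. By gene, r was -0.821 for Ldha, -0.812 for Aldoa, -0.805 for Gapdh and -0.739 for Pkm, each with an adjusted permutation p of 0.000748 or less. Without the same 2 libraries these were -0.736, -0.734, -0.773 and -0.694. Pfkl followed with r = -0.682 (adjusted permutation p = 0.00435) and -0.501 without those 2. For Pgk1 r was -0.217 (adjusted permutation p = 0.39) but -0.536 without those 2, for Pfkp 0.264 (0.318) and -0.112, and for Hk2 0.465 (0.0596) and 0.252. For Hk1 and Pfkfb3, r was -0.708 and -0.611 but -0.182 and 0.122 without the 2 farthest libraries, so those relations rest on those libraries. Libraries that share a mouse would not be independent. Both values of a library share its total count, and only the enzyme levels were TMM-scaled. The relation was computed for the glycolytic genes and the sum above, and the share of all genes with an r as low was not computed. Whether these enzymes follow the receptor-gene reads more closely than other genes do was therefore not tested.

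**Figure D3:**
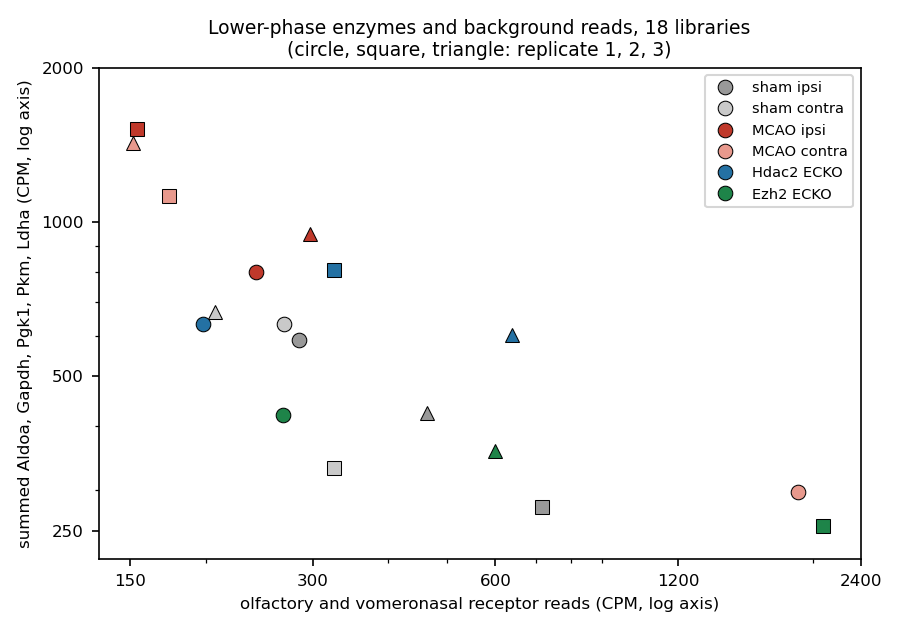
Summed level of Aldoa, Gapdh, Pgk1, Pkm and Ldha (y axis, CPM, log axis) against reads on olfactory and vomeronasal receptor genes (x axis, CPM without TMM scaling, log axis). Each point is 1 of 18 libraries, coloured by group, with circle, square and triangle for replicates 1, 2 and 3. MCAO contralateral replicate 1 and Ezh2 ECKO replicate 2 lie at 1889 and 2083 CPM of receptor reads with 297 and 255 CPM of the enzymes.

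Isoenzyme balance was read as a ratio of counts within a library, which does not depend on scaling. The ratio of Pfkp to Pfkl had the largest differences of group means. Its log2 value was 2.96, 3.95 and 1.66 in the libraries labelled Ezh2 ECKO, against 0.16, -1.82 and -0.01 in MCAO ipsilateral and 0.08, 0.55 and -0.94 in Hdac2 ECKO. All 3 Ezh2 ECKO libraries lay above all libraries of both groups, by means of 3.41 and 2.96 log2 units (exact permutation p = 0.1 each, two-sided, the smallest that 3 against 3 allows, and 0.875 after adjustment over 35 tests). A similarly high value, 2.71, occurred in MCAO contralateral replicate 1, and the lowest receptor-gene reads among the Ezh2 ECKO libraries went with 2.96. The part of the receptor-gene reads in this ratio was not tested.

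Ldha outweighed Ldhb, the heart form of lactate dehydrogenase, in every library, with log2 ratios of 1.89 to 5.73 in counts. The sham libraries were tight, at 2.51 to 3.02, and the MCAO libraries wide, at 1.93 to 5.73, so the groups overlapped. Aldoa outweighed Aldoc, the brain form of aldolase, by log2 ratios of 4.62 to 11.5 in the 16 libraries with Aldoc counts, which numbered 2 to 239. Aldoc had 0 counts in MCAO ipsilateral replicate 1 and Ezh2 ECKO replicate 1, where the ratio is set by the prior count and is not given. Hk2 was below Hk1 in all 18 libraries. Its log2 ratio to Hk1 was lower in Hdac2 ECKO, at -7.32, -6.18 and -6.54, than in Ezh2 ECKO, at -5.67, -3.39 and -4.40 (exact permutation p = 0.1, adjusted 0.875), on counts of 4 to 28 for Hk2. The ratio of Pfkfb3 to Pfkl was lower in MCAO contralateral, at -2.07, -1.30 and -1.67, than in sham contralateral, at -1.20, 0.33 and -0.54 (exact permutation p = 0.1, adjusted 0.875). Of the 35 comparisons of 5 ratios, these 4 were the ones without overlap. Any full separation of 3 from 3 libraries has an exact permutation p of 0.1. Among 35 comparisons, some would thus lack overlap without a true difference.

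**Figure D4:**
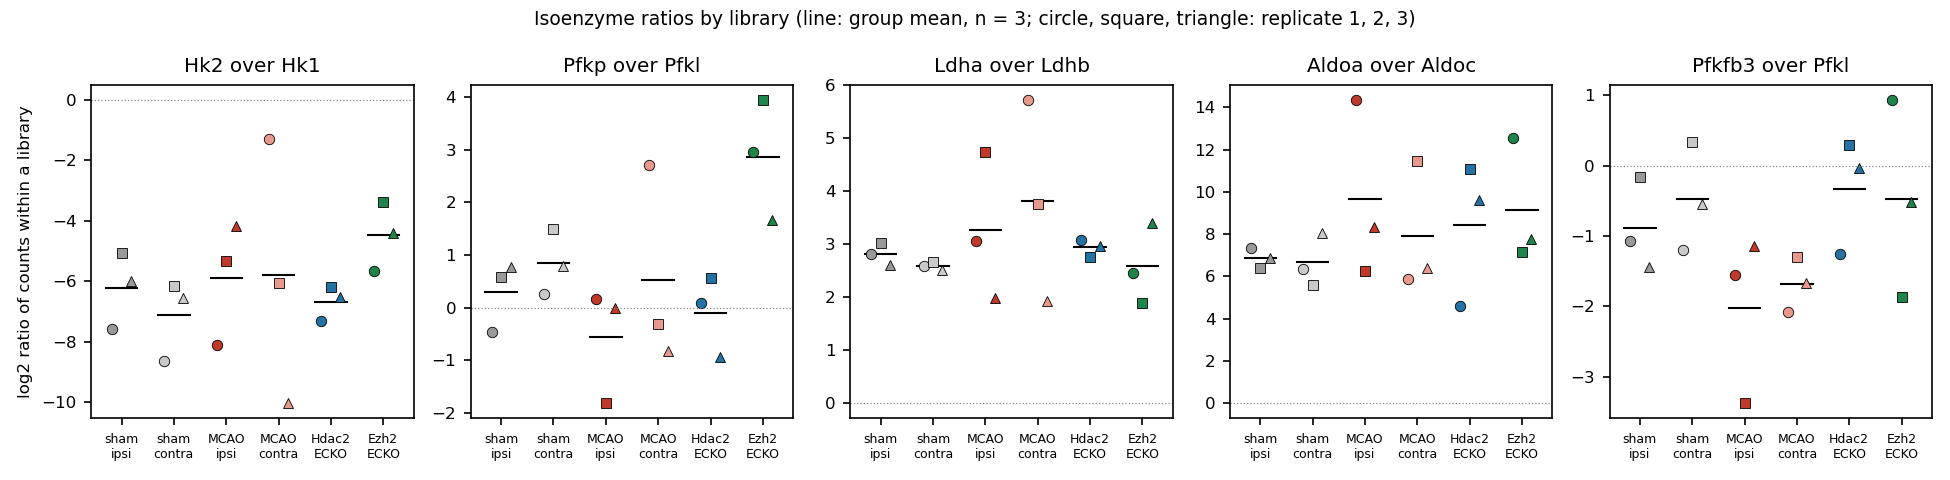
Log2 ratio of counts (y axis) for 5 pairs of genes in each library, by group (x axis), with the group mean as a line and circle, square and triangle for replicates 1, 2 and 3. For Pfkp over Pfkl the 3 Ezh2 ECKO libraries, at 1.66 to 3.95, lie above the MCAO ipsilateral and Hdac2 ECKO libraries. The highest point of Aldoa over Aldoc in each of MCAO ipsilateral and Ezh2 ECKO rests on 0 Aldoc counts and is set by the prior count of 0.5.

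The rest of the pathway was described with lists of related genes. In the comparison of libraries labelled Ezh2 ECKO with MCAO ipsilateral, 4 of 92 list genes tested were called by edgeR, all lower, where 1.46% of all genes were called and 1.23% were called lower. At an unadjusted p under 0.05 there were 23 of 92, against 19.2% of all genes. Of the 10 list genes named for this comparison, DESeq2 called 6 and voom with sample weights 2, Bsg and Akt1. The 10 were picked by their edgeR p in this same comparison, so these counts are no independent support. The 4 called by edgeR were Bsg, Pgls, P4ha1 and Akt1. Bsg is the chaperone of lactate transporters (log2 fold change -2.85 ± 0.66, adjusted p = 0.0379, 1 of 9 transporter genes tested). Pgls belongs to the pentose phosphate pathway (-3.11 ± 0.78, 0.0482, 1 of 8). P4ha1 is a collagen prolyl hydroxylase known to be induced by hypoxia (-2.88 ± 0.60, 0.0291, 1 of 20 hypoxia genes). Akt1 is a kinase that promotes glucose use (-1.97 ± 0.47, 0.0434, 1 of 10 regulators). Bsg was very abundant, at 3876, 2486 and 3157 CPM in the Ezh2 ECKO libraries and 19170, 32980 and 16270 CPM in MCAO ipsilateral. P4ha1 had 18.4, 5.97 and 7.74 CPM against 86.9, 114.3 and 35.1 CPM. Each of the 4 genes was below the MCAO range in all 3 libraries, where 15.3% of all genes were lower without overlap. The 4 were picked by their p in this same comparison, so this separation is no independent support. With the receptor-gene reads as a covariate the adjusted p was 0.176 for Bsg, 0.15 for Pgls, 0.0967 for P4ha1 and 0.112 for Akt1. Leaving out 1 library of either group at a time, the call was lost for Pgls in all 6 fits, for Bsg in all but that without MCAO ipsilateral replicate 3 (adjusted p = 0.0351), and for Akt1 in all but that without Ezh2 ECKO replicate 1 (0.0214). P4ha1 was called without MCAO ipsilateral replicate 3 or Ezh2 ECKO replicate 1 and lost in the other 4, at an adjusted p of up to 0.171. The log2 fold changes in these fits ran from -4.30 to -2.58 for Pgls, -3.08 to -2.48 for Bsg, -2.66 to -1.66 for Akt1 and -3.52 to -2.51 for P4ha1.

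Among the other glycolytic enzymes, 0 of 17 tested were called by edgeR, 2 had a higher and 5 a lower value at an unadjusted p under 0.05, against 19.2% of all genes in either direction, and the median was -0.57. Gpi1, which interconverts glucose and fructose phosphates, averaged 25.03 against 73.3 CPM (-1.55 ± 0.52, adjusted p = 0.119). Gapdhs, the sperm form of Gapdh, had 0, 1 and 0 counts in the Ezh2 ECKO libraries and 86, 19 and 88 counts in MCAO ipsilateral (adjusted p = 0.0575), and was called by DESeq2 (adjusted p = 0.0018) and without both libraries rich in receptor-gene reads (0.0319). By edgeR no gene was called among 15 genes of pyruvate entry to mitochondria (0 at an unadjusted p under 0.05) or 13 of glycogen metabolism (2). Phkb, a subunit of the kinase that activates glycogen breakdown, averaged 32.6 against 11.8 CPM (1.46 ± 0.54, adjusted p = 0.151, and 0.0395 by DESeq2), and Pygm, muscle glycogen phosphorylase, 0.132 against 1.23 CPM (adjusted p = 0.211). Pdp2 and Pdk4, which act on pyruvate dehydrogenase in opposite directions, gave 1.47 ± 0.87 and 1.67 ± 1.12 (adjusted p = 0.348 and 0.402).

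For MCAO against sham over both sides, 0 of 92 genes of the 7 lists were called by edgeR, and 16 had an unadjusted p under 0.05, against 9.09% of all genes. Of the 14 genes named here, DESeq2 called 4, Slc2a1, Slc2a3, Bnip3 and P4ha1. Voom with sample weights called 11, all but Slc2a3, Phka1 and Pgm1. The 14 were picked for a small unadjusted p in this same comparison, so these counts are no independent support. The nearest to the threshold were hypoxia genes, Bnip3, a mitochondrial receptor for mitophagy (1.21 ± 0.27, adjusted p = 0.0678), and P4ha1 (1.77 ± 0.41, adjusted p = 0.0803). Slc2a1, the glucose transporter GLUT1 of the blood-brain barrier, had 674 to 1002 CPM in the 6 sham libraries and 1082 to 2391 CPM in the 6 MCAO libraries, which did not overlap (0.81 ± 0.23, adjusted p = 0.185), where 1.42% of all genes did not overlap. G6pdx, the first enzyme of the pentose phosphate pathway, did not overlap either (1.16 ± 0.50, adjusted p = 0.475). The glycolytic enzymes Eno1 and Tpi1 averaged 195.4 against 95.1 CPM (1.05 ± 0.46) and 108.3 against 49.3 CPM (1.16 ± 0.54). The transporter Slc2a3 had 18.3 CPM in MCAO contralateral replicate 1 and 0 to 2.30 CPM in the other 5 MCAO libraries, against 0 to 1.00 CPM in sham (3.42 ± 1.20, and 1.77 without that library). Pdp1 and Mpc1 of pyruvate entry gave 1.21 ± 0.39 and 0.47 ± 0.22, and Taldo1 0.80 ± 0.37. Klf4, a flow-responsive transcription factor, and Foxo1, which is known to restrain endothelial metabolism, gave -0.56 ± 0.20 and -0.56 ± 0.24, with adjusted p = 0.324 and 0.463. The glycogen genes Phka1 and Pgm1 gave -0.94 ± 0.48 and 0.86 ± 0.53. Without MCAO contralateral replicate 1, edgeR called Slc2a1 (0.90, adjusted p = 0.04995), Bnip3 (1.19, 0.0345), P4ha1 (1.69, 0.0451), Eno1 (1.34, 0.0463) and Tpi1 (1.46, 0.0277). Bnip3 and P4ha1 were also called without MCAO ipsilateral replicate 3 (adjusted p = 0.0235 and 0.0322), and P4ha1 without MCAO contralateral replicate 3 (0.04).

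When libraries labelled Hdac2 ECKO were set against MCAO ipsilateral, edgeR called 0 of 92 genes of the 7 lists, and 13 had an unadjusted p under 0.05, against 9.85% of all genes. Of the 14 genes named here, DESeq2 called Slc2a1 (-1.11, adjusted p = 0.0361) and Ankrd37 (1.37, 0.000454), and voom with sample weights called Ankrd37 (1.39, 0.00608). The 14 were picked for a small unadjusted p in this same comparison, so these calls are no independent support. Ankrd37 also passed with the receptor-gene reads as a covariate (0.0238) and without both libraries rich in them (0.0374). Slc2a1 had 941.5, 774 and 645 CPM against 1788, 2391 and 1195 CPM (-1.19 ± 0.33, adjusted p = 0.304), and Eno1 and Pgam1 gave -1.51 ± 0.66 and -1.10 ± 0.46, each without overlap. G6pdx gave -2.15 ± 0.73, Pgls -1.33 ± 0.73, Slc2a8 -1.82 ± 0.83 and Pygm -2.62 ± 1.34. The hypoxia genes Ankrd37 and Higd1a lay above MCAO in all 3 libraries (1.30 ± 0.30 and 0.99 ± 0.37, adjusted p = 0.225 and 0.426), as did Klf4 and Mtor (0.85 ± 0.28 and 1.18 ± 0.50). Groups did not overlap for 19.9% of all genes in this comparison. Phkb gave 1.16 ± 0.54, Mpc2 0.47 ± 0.41 and Pdhb -0.41 ± 0.38.

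**Figure D5:**
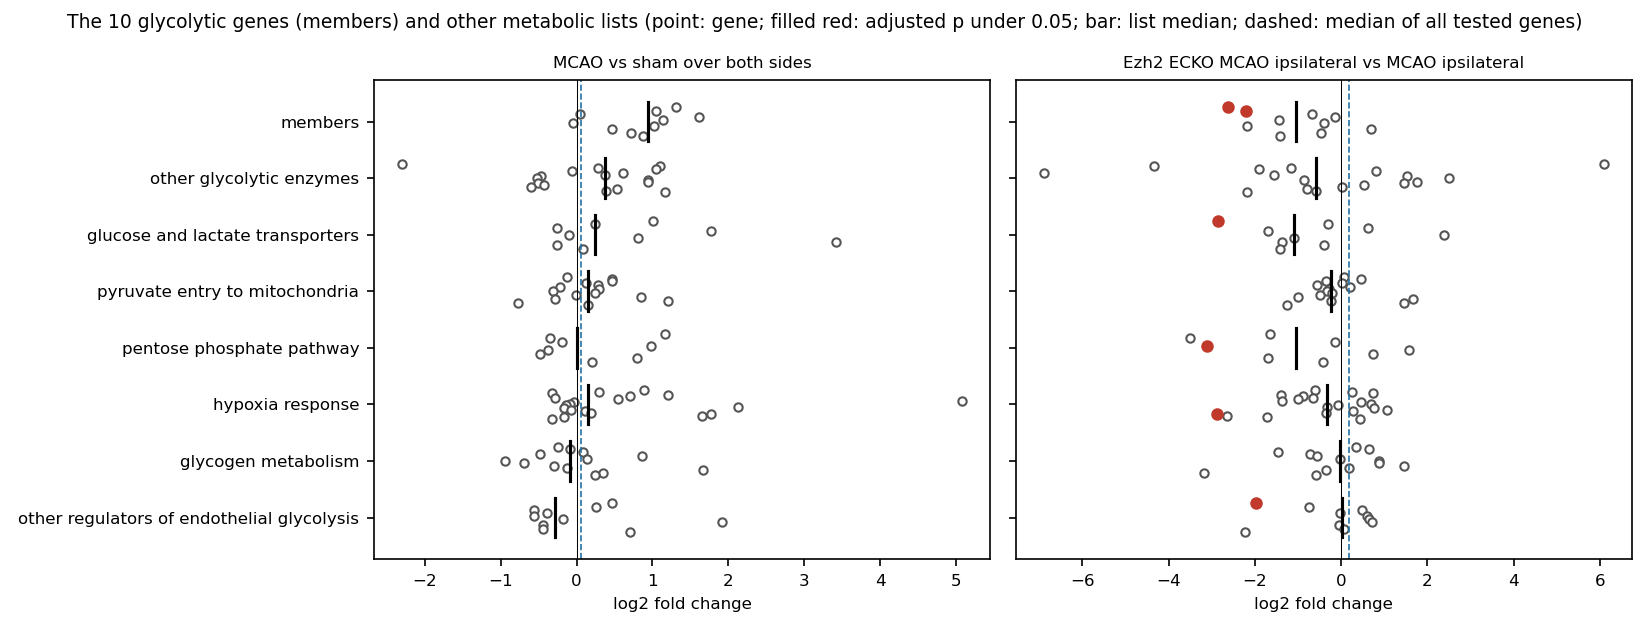
Log2 fold change (x axis) of each tested gene of 8 lists (y axis) for MCAO against sham over both sides and for libraries labelled Ezh2 ECKO against MCAO ipsilateral. Filled red points passed an adjusted p under 0.05, black bars are list medians and the dashed line is the median of all tested genes. The 10 glycolytic genes have medians of 0.95 on the left and -1.05 on the right, and red points, all lower, occur only on the right.

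Within the group, Aldoa, Gapdh, Pkm, Ldha and Pfkl varied together, and Pgk1 did so less closely. Over the 18 libraries the Pearson correlation of log2 CPM had a median of 0.798 over the 10 pairs among Aldoa, Gapdh, Pgk1, Pkm and Ldha, from 0.245 to 0.984, the last for Aldoa with Gapdh. The pairs of Pgk1 with the other four had r from 0.245 to 0.507, and from -0.228 to 0.266 after each group's mean was removed. The other 35 pairs had a median of 0.0893, but Pfkl reached 0.806 with Aldoa, 0.841 with Gapdh, 0.758 with Pkm and 0.71 with Ldha. The tested genes with the highest correlation to the mean pattern of the 10 genes, of 7806 with a mean of at least 10 CPM, were H2-D1, an MHC class I heavy chain (r = 0.951), Fth1, the ferritin heavy chain (0.947), Tmem176b (0.946), Chid1 (0.928) and the ribosomal protein gene Rpl3 (0.925), whereas the closest gene of the pathway lists, Taldo1, ranked at 42 (0.866). These correlations describe libraries that share depth, scaling and groups.

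Some counts depend on how reads were assigned. Of all stretches of 50 bases in the transcripts of a gene, 53.9% for Pgk1, 25.8% for Pkm, 24.7% for Gapdh, 9.03% for Ldha and 5.13% for Aldoa also occur in transcripts of other genes, such as Pgk1-rs7 for Pgk1, so these levels are uncertain by an amount that the deposited counts do not show. For Hk1, Hk2, Pfkl, Pfkp and Pfkfb3 the share was 0.363% or less. Pkm shares 15.3% of its exon bases with Gm49759 on the same strand, Pfkp shares 5.58% of its exon bases with Pitrm1 on the opposite strand, and the strand setting of the counting is not given in the sources used here.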

How the data were processed

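Polyadenylated RNA of sorted cortical endothelial cells was amplified with SMART-Seq v4 PLUS and sequenced as paired ends, per the labels' protocols. The submitters' processing notes name FastQC, cutadapt, STAR, featureCounts, DESeq2 and mm10, without roles or versions. The authors deposited 1 table for 18 libraries whose name calls the values normalized, but the deposited values are whole numbers with unequal totals (25791401 to 57576255) and were used as counts. Of values from 1 to 20, 77.3% to 89.4% were even.

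Genes with at least 10 counts in at least 3 libraries were kept (17094 of 21638). One edgeR 4.0.16 quasi-likelihood fit (R 4.3.3) with TMM scaling and 6 group means gave each comparison. P-values were adjusted by Benjamini-Hochberg over all tested genes and called under 0.05, and SE is the absolute log2 fold change divided by the square root of F. Ratios of counts used a prior count of 0.5 and exact permutation tests, and correlations 100000 permutations (Python 3.11.15, scipy 1.17.1). Alternatives were RLE scaling, no filter, a prior count of 5, DESeq2 1.42.0, limma 3.58.1 voom with sample weights, a fit of the compared groups, a replicate block, receptor-gene reads as covariate, sides summed, each library left out, and, chosen after seeing the data, both libraries that stand apart left out. Shares of all genes called were computed for the main fit and not for the alternatives. The scripts were tested on simulated data.

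The members and lists were chosen with earlier results of these data known. Named genes are the 10 members, both targeted genes, up to 3 called genes per list and comparison (where none was called, up to 2 with the smallest unadjusted p) and the 5 genes most correlated with the members. Leave-one-out calls of pathway genes are given for these named genes.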

Additional observations from a re-analysis of the deposited data

How the results depend on the processing

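The number of glycolytic genes called for MCAO ipsilateral against sham ipsilateral was 0, and 4 by voom with sample weights. Over both sides it was 0, against 6 by voom with sample weights, 4 without both libraries that stand apart and 0 to 4 when 1 library was left out. With the sides summed by replicate number, the number over both sides was 0. Of the 21 alternatives for this comparison, 3 called any of these genes. They were voom, the fit without both libraries that stand apart and the fit without MCAO contralateral replicate 1. For libraries labelled Ezh2 ECKO against MCAO ipsilateral it was 2, against 0 with the receptor-gene reads as a covariate and 0 to 2 when 1 library was left out. With a replicate block it was 0, at log2 fold changes of -2.74 for Aldoa (adjusted p = 0.0689) and -2.30 for Gapdh (0.0631). Same-numbered libraries were not treated as pairs, since the labels do not pair them and 10 of 45 of their correlations were over 0.1. Among the 6 correlations between sides of 1 condition, 4 were over 0.1 (0.288 to 0.381), each the best match, so a shared mouse is not settled. The causes of these shifts were not tested.

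Several small fold changes turned sign. For MCAO ipsilateral against sham ipsilateral, Hk1 was -0.079 with the covariate, and Pfkp was -0.0395 without the low-count filter and -0.11 by voom. For MCAO contralateral against sham contralateral, Hk1 was 0.043 by voom and 0.087 without both libraries that stand apart, and Pfkfb3 was -0.082 without the filter and -0.017 with the replicate block. Over both sides, Hk1 was -0.088 without the filter and -0.32 with the covariate, and Pfkfb3 was 0.24 by voom and 0.17 without both libraries. For Hdac2 ECKO against MCAO ipsilateral, the covariate gave 0.30 for Hk1 and 0.046 for Ldha. For Ezh2 ECKO against MCAO ipsilateral, Hk1 was 0.20 with the covariate, Pfkfb3 was 0.19 with it and 0.18 without both libraries, and Hk2 was 0.0809 with RLE scaling, 0.0299 with the replicate block, 0.0105 with the compared groups alone, 0.0811 by DESeq2 and 1.19 by voom. With a prior count of 5, the log2 ratio of Aldoa over Aldoc differed by 0.21 between Hdac2 ECKO and Ezh2 ECKO.

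Leaving out 1 library at a time turned the sign of these log2 fold changes. For MCAO ipsilateral against sham ipsilateral, Pfkp ran from -0.15 to 0.36 and Pfkfb3 from -0.64 to 0.16. For the contralateral side, Hk1 ran from -1.06 to 0.12 and Pfkfb3 from -0.42 to 0.53. Over both sides, Hk1 ran from -0.28 to 0.31 and Pfkfb3 from -0.29 to 0.19. For Hdac2 ECKO against MCAO ipsilateral, Hk1 ran from -0.43 to 0.12, Pfkp from -0.18 to 0.70 and Ldha from -0.79 to 0.0125. For Ezh2 ECKO against MCAO ipsilateral, Hk2 ran from -0.68 to 0.82 and Pfkfb3 from -1.05 to 0.14, and Pfkp for Hdac2 ECKO against Ezh2 ECKO from -0.89 to 0.0226.

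Differences in log2 ratios turned sign likewise. Hk2 over Hk1 ran from -0.52 to 1.45 for MCAO ipsilateral against sham ipsilateral, -2.20 to 2.16 for MCAO ipsilateral against contralateral, -0.92 to 3.44 for the contralateral groups and -1.92 to 0.056 for Hdac2 ECKO against MCAO ipsilateral. In the last 3 of these comparisons Pfkp over Pfkl ran from -1.76 to 0.0109, -1.41 to 0.35 and -0.18 to 0.87. Ldha over Ldhb ran from -0.28 to 1.09 for MCAO ipsilateral against sham ipsilateral, -1.48 to 0.42 between MCAO sides, -0.97 to 0.41 for Hdac2 ECKO and -1.33 to 0.051 for Ezh2 ECKO against MCAO ipsilateral. Aldoa over Aldoc ran from -0.61 to 3.52 between MCAO sides, -0.52 to 2.29 for the contralateral groups, -0.31 to 0.90 between sham sides, -2.92 to 1.13 and -2.21 to 1.85 for Hdac2 ECKO and Ezh2 ECKO against MCAO ipsilateral, and -2.05 to 1.19 between these ECKO groups. Pfkfb3 over Pfkl ran from -0.78 to 0.33 between MCAO sides and -0.54 to 0.86 between the ECKO groups. With 3 libraries a group, no ratio could pass the threshold.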
